A study of Mus musculus with 40 samples.

Results

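The 10 genes described here encode the classical MHC class I molecule and the machinery that feeds it: the heavy chains *H2-K1* and *H2-D1*, the light chain *B2m*, the peptide transporter and its docking protein *Tap1*, *Tap2* and *Tapbp*, the inducible proteasome subunits *Psmb8*, *Psmb9* and *Psmb10*, and *Nlrc5*, a transcriptional activator of class I genes. They were taken by gene name from the 2 expression tables of the series, one for male and one for female mice, and all 10 were present in both (10 of 17646 genes in the male table and 10 of 17223 in the female table). All 10 passed the filter on low values in both tables, so none entered through a single group. RNA sequencing was done on heart tissue, left ventricle per the study's methods, with 1 library per mouse. CM-Il11-Tg mice carry the Rosa26-Il11 transgene together with MerCreMer, a tamoxifen-activated Cre driven by the α-MHC (*Myh6*) promoter of cardiomyocytes. They were sampled without tamoxifen ("uninduced") or 1, 3 and 6 weeks after it. The control group, labelled WT, was made up of littermates that carry MerCreMer but no Rosa26-Il11 and received tamoxifen at the same dose, 20 mg/kg daily for 5 days from 8 weeks of age. Active Cre and tamoxifen were therefore shared by the control and the induced groups, while the uninduced mice differed from the control in both the transgene and the drug. Rosa26-Il11 was kept on C57BL/6N and MerCreMer on C57BL/6J. The labels give the controls the time point Baseline and no week, and 1 control group per sex served the comparisons at 1, 3 and 6 weeks, so differences in time since tamoxifen or in age at sampling cannot be told apart from induction. Groups held 4 libraries, except 3 male controls and 3 males at 6 weeks, because 2 male libraries carried labels that contradict each other and entered no group.

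Class I molecules display short peptides from the cell's own cytosolic proteins to CD8 T cells. The proteasome cuts the peptides, the TAP transporter (a dimer of TAP1 and TAP2) carries them into the endoplasmic reticulum, and tapasin, the product of *Tapbp*, holds the empty heavy chain and β2-microglobulin next to TAP until a peptide binds. Under interferon gamma the constitutive catalytic subunits encoded by *Psmb6*, *Psmb7* and *Psmb5* can be replaced by those encoded by *Psmb9*, *Psmb10* and *Psmb8*, which makes the immunoproteasome. Leukocytes and endothelial cells carry much class I, whereas resting cardiomyocytes are known for little of it.

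Of the 10 genes, 7 lie on mouse chromosome 17 (GRCm39, GENCODE M39 annotation). *Psmb9* (17:34400960-34406738, minus strand), *Tap1* (17:34405996-34416199, plus), *Psmb8* (17:34416690-34420428, plus) and *Tap2* (17:34422501-34435829, plus) sit side by side within 34870 bases. *Psmb9* and *Tap1* overlap at their 5′ ends on opposite strands. Whether reads were counted by strand is not given in the sources used here, so reads in that stretch could belong to either gene. *Tapbp* (17:34134873-34148267, plus), *H2-K1* (17:34214987-34219321, minus) and *H2-D1* (17:35481691-35486475, plus) complete the chromosome 17 genes, with *B2m* on chromosome 2 (2:121977957-121983594, plus) and *Psmb10* (8:106662362-106665077, minus) and *Nlrc5* (8:95160984-95253900, plus) on chromosome 8. *H2-K1* and *H2-D1* are close paralogs of each other and of the other class I genes, and the treatment of reads that map to several of them is not given in the sources used here, so their separate values are uncertain.

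Promoters were available for 8 of the 10 genes (RefSeq, GRCm38.p6, 250 bases before to 50 after the annotated start), all but *Tap2* and *Nlrc5*. They were searched on both strands for GAAANNGAA (the core of an interferon-stimulated response element), TTCNNNGAA (a gamma-activated site), ATTGG (the Y box, an inverted CCAAT) and TGACG (the X2 box), which were present in 8.6%, 8.3%, 37.4% and 20.8% of all 32851 promoters. The 4 stretches of 150 bases below are shown because they hold the class I promoter boxes of the 3 chains of the displayed molecule and, for contrast, the start region of *Psmb9*; capitals mark the motif matches on either strand, and all are written 5′ to 3′ on the strand of the gene.
B2m, chr2:122147537-122147686, plus strand: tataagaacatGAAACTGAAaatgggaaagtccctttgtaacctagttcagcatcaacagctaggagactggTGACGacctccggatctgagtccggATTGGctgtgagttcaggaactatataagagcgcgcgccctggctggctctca
H2-K1, chr17:34000334-34000483, minus strand: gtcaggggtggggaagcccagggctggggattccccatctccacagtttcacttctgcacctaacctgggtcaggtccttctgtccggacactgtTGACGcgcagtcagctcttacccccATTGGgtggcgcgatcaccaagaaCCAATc
H2-D1, chr17:35262944-35263093, plus strand: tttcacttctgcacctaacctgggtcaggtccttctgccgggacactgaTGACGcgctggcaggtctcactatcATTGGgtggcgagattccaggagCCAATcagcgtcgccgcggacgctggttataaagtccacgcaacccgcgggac
Psmb9, chr17:34187331-34187480, minus strand: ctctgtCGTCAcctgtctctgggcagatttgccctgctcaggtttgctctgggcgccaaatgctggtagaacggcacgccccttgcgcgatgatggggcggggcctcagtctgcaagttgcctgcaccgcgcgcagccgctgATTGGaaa
In *B2m*, *H2-K1* and *H2-D1* the X2 and Y boxes stood in the same order with 20 bases between them. That arrangement was noticed after the sequences had been read, and was found in 31 of the 32851 promoters (0.094%), which belong to 27 genes. Of 12 other class I heavy chain genes with a promoter, only 1, *H2-M3*, was among them. A match is a description of the letters only. An element that departs from the searched letters would not be marked, so a lack of capitals does not show its absence. The *Psmb9* and *Tap1* windows cover the same 275 bases on opposite strands.

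Values are in CPM, reads of a gene scaled by the effective size of the library. Reads on the listed genes numbered 16663513 to 65333832 per male library and 19147947 to 30929192 per female library. The transgene matched the labels in every grouped library. *Il11* averaged 0.0867 ± 0.0769 CPM (SD, n = 3) in male controls, 19.6 ± 2.89 (n = 4) in uninduced males and 421 to 570 in induced males, with 0.0886 ± 0.0799, 26.8 ± 15.1 and 463 to 494 in the corresponding females. Without tamoxifen the transgenic hearts thus already held *Il11* reads above the controls. Heart muscle markers summed to 51200 to 61900 CPM in male controls and 32200 to 42100 at 6 weeks, without overlap, and to 36300 to 53700 and 31500 to 40700 in females, and their part in the class I values was not tested. The scaled values of a library summed to 1063756 to 1196278 in controls but 817395 to 1165099 in induced hearts, so a gene with a constant share of reads is listed lower after induction. Scaling to the total of each library moved the median log2 difference of all genes at 6 weeks in females from -0.02 to 0.335, and it is named below where it matters.

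In females, class I genes rose from the first week. Of the 10 genes, 7 rose at 1 week, 9 at 3 weeks and 9 at 6 weeks against the control, and none fell (limma on log2(CPM + 0.5) with Benjamini-Hochberg adjustment over all genes, adjusted p under 0.05). Over all genes tested, 15.3%, 16.8% and 21.7% were higher and 13.1%, 14.5% and 21.0% lower at these times, so the share of members that rose was well above the background at each time. The split of all genes depends on the scaling: at 6 weeks 3678 were higher and 3567 lower, and 8356 and 1045 with each library scaled to its total reads, when 9 members rose and 49.3% of all genes did. The members' median log2 difference was 0.48, 0.50 and 0.62, while that of all genes lay between -0.02 and 0.02. At 6 weeks the 9 genes that rose did not overlap between the groups, where 19.5% of all genes lay above every control in the same way, leaving only *Nlrc5* without a change that passed. At 1 and 3 weeks 16.5% and 18.9% of all genes lay above every control. In bulk tissue more cells of a type and more RNA per cell cannot be told apart.

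In males the same genes were higher on average, except *Nlrc5* at 1 week, but fewer passed. At 1 week 4 rose (*H2-D1*, *Tapbp*, *Psmb8* and *Psmb10*), at 3 weeks 3 (*H2-K1*, *H2-D1* and *Tapbp*) and at 6 weeks 1 (*Tapbp*), none fell, and at an unadjusted p under 0.05 the numbers were 6, 6 and 3, against 43.1%, 32.6% and 38.6% of all genes. Over all genes, 18.9%, 13.2% and 16.2% were higher and 14.6%, 8.1% and 10.9% lower, so the single call at 6 weeks was below the background share. With total reads 8, 6 and 3 members rose, against 37.9%, 22.9% and 21.3% of all genes. The members' median log2 difference was 0.50, 0.52 and 0.43. Of the members 8, 1 and 6 did not overlap with the control, against 40.9%, 33.1% and 37.7% of all genes in either direction. Calls in males turned on single libraries: the count at 1 week fell from 4 to 1 (*Psmb10*) without control replicate 3. At 3 weeks it fell from 3 to 1 (*H2-D1*) without control replicate 1 or without 3-week replicate 1, and to 0 without control replicate 3. At 6 weeks it fell from 1 to 0 without 6-week replicate 4. The female count at 3 weeks fell from 9 to 5 without 3-week replicate 3, whereas at 6 weeks it was 9 whichever library was left out. The difference between the sexes was not tested, because the tables were scaled separately.

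**Figure D1:**
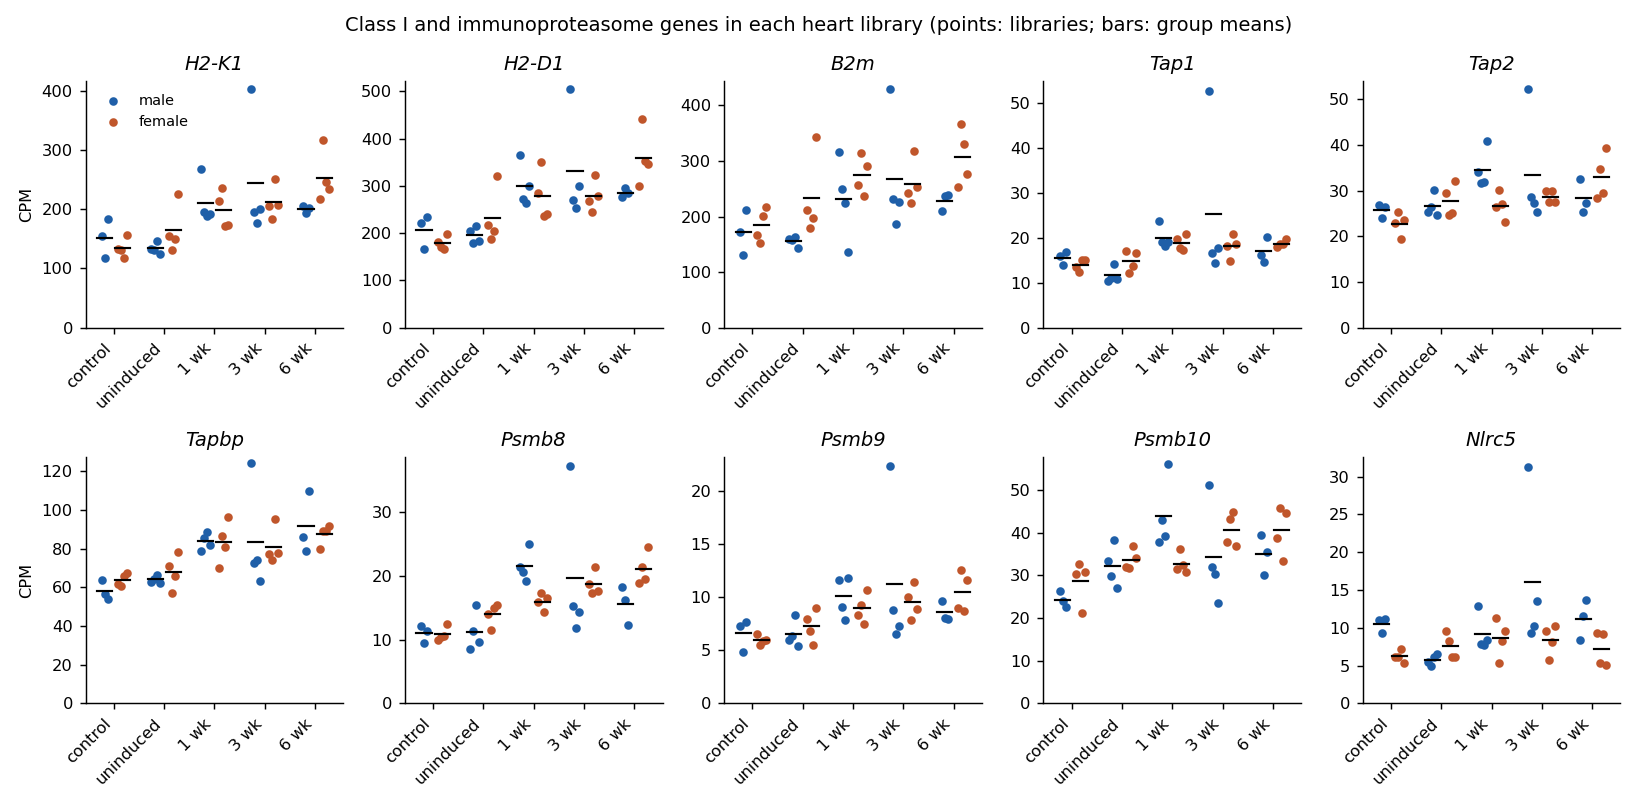
Expression of the 10 genes in every grouped library, in CPM on the vertical axis of each panel, with male and female groups side by side, 1 point per library and a bar at the group mean. Female libraries at 6 weeks lie above all female controls for 9 genes, and 1 male library at 3 weeks is the highest of its group in all 10 panels.

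Both heavy chains and the light chain rose at all 3 times in females. In males *H2-K1* rose at 3 weeks, *H2-D1* at 1 and 3 weeks and *B2m* at none. *H2-K1*, which presents peptides at the cell surface, measured 133, 131, 118 and 157 CPM in female controls, 214, 236, 171 and 174 at 1 week, 206, 183, 251 and 207 at 3 weeks and 217, 316, 246 and 234 at 6 weeks. Every induced female library was above every control. The log2 differences were 0.55 ± 0.16 (SE, n = 4 per group; adjusted p = 0.0104), 0.65 ± 0.16 (0.00311) and 0.90 ± 0.16 (0.000105) by limma. In males the control libraries held 155, 118 and 183 CPM, against 267, 195, 189 and 192 at 1 week, 402, 196, 176 and 201 at 3 weeks and 206, 194 and 202 at 6 weeks. The 1-week and 6-week libraries did not overlap with the controls, but 1 library at 3 weeks did, and the library at 402 stood far above the other 3. The male differences were 0.48 ± 0.21 (adjusted p = 0.0877), 0.62 ± 0.21 (0.0418) and 0.42 ± 0.23 (0.175), of which only the one at 3 weeks passed.

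*H2-D1*, the second classical heavy chain, followed closely. Female controls held 181, 170, 167 and 199 CPM and 6-week females 300, 441, 353 and 346, with 237 to 350 at 1 week and 244 to 323 at 3 weeks. No induced female library overlapped with the controls, and the 6-week libraries included the highest of all. The log2 differences were 0.62 ± 0.15 (adjusted p = 0.00474), 0.63 ± 0.15 (0.00381) and 0.99 ± 0.15 (3.38e-05). In male controls *H2-D1* measured 221, 167 and 235 CPM, against 365, 272, 264 and 299 at 1 week, 505, 270, 253 and 299 at 3 weeks and 277, 296 and 284 at 6 weeks. The male groups did not overlap with the control at any time either, and the differences were 0.53 ± 0.19 (adjusted p = 0.0318), 0.63 ± 0.19 (0.0182) and 0.47 ± 0.20 (0.0834).

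*B2m*, the invariant light chain that every class I heavy chain needs, measured 167, 153, 201 and 218 CPM in female controls, 257, 314, 237 and 291 at 1 week, 242, 225, 318 and 253 at 3 weeks and 253, 366, 331 and 277 at 6 weeks. The induced females lay above all controls at each time, by 0.58 ± 0.17 (adjusted p = 0.0169), 0.49 ± 0.17 (0.0373) and 0.73 ± 0.17 (0.00234) on the log2 scale. Male libraries spread more: controls held 173, 131 and 211, 1-week hearts 316, 249, 224 and 137, 3-week hearts 429, 232, 186 and 227 and 6-week hearts 210, 237 and 238. The groups overlapped at all 3 times, and the differences of 0.39 ± 0.25, 0.59 ± 0.25 and 0.44 ± 0.27 did not pass (adjusted p = 0.237, 0.0993 and 0.24).

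Of the transport and loading genes, *Tapbp* was the member that passed in both sexes at every time, although its male call at 3 weeks was lost with the replicate block, with median-of-ratios scaling, in a fit on only the 2 groups, and without control replicate 1, 3 or 4 or 3-week replicate 1 or 3 (0.27 to 0.73 over all alternatives, adjusted p = 0.00244 to 0.139). It measured 61.7, 60.7, 65.7 and 67.3 CPM in female controls and 79.7, 88.9, 89.1 and 91.9 at 6 weeks, with 69.9 to 96.5 at 1 week and 73.9 to 95.4 at 3 weeks. All induced female libraries were above the controls, by 0.37 ± 0.11 (adjusted p = 0.0115), 0.34 ± 0.11 (0.0204) and 0.45 ± 0.11 (0.00213) on the log2 scale. In males it measured 63.9, 56.5 and 54.2 CPM in controls, 79.0, 85.5, 88.5 and 81.8 at 1 week, 124, 72.7, 73.9 and 63.5 at 3 weeks and 85.8, 78.8 and 110 at 6 weeks. Only the 3-week group overlapped with the controls, through its lowest library. The male differences were 0.52 ± 0.16 (adjusted p = 0.0185), 0.47 ± 0.16 (0.0455) and 0.64 ± 0.17 (0.0104). *Zbtb22* lies on the same strand and overlaps *Tapbp*, so part of those reads may be its own.

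*Tap1*, one chain of the transporter, measured 13.5, 12.3, 15.0 and 15.0 CPM in female controls, 19.7, 17.7, 17.4 and 20.9 at 1 week, 18.1, 14.8, 20.9 and 18.6 at 3 weeks and 18, 18.6, 18.6 and 19.7 at 6 weeks. It rose at all 3 times (log2 differences 0.43 ± 0.12, 0.36 ± 0.12 and 0.41 ± 0.12, adjusted p = 0.00828, 0.0224 and 0.00714), and only 1 library at 3 weeks reached into the control range. In males *Tap1* measured 16.0, 14 and 16.8 in controls and 16.2, 14.7 and 20.2 at 6 weeks, and 52.8, 16.7, 14.4 and 17.7 at 3 weeks. The groups overlapped at 3 and 6 weeks, and no male difference passed (0.34 ± 0.29, 0.48 ± 0.29 and 0.11 ± 0.30, adjusted p = 0.376, 0.268 and 0.815). *Tap2*, the partner chain, measured 23, 25.2, 19.3 and 23.5 CPM in female controls, 29.9, 27.4, 29.8 and 27.6 at 3 weeks and 28.3, 34.8, 29.4 and 39.4 at 6 weeks. It rose at these 2 times by 0.33 ± 0.12 (adjusted p = 0.0338) and 0.52 ± 0.12 (0.00126), without overlap, but not at 1 week (0.23 ± 0.12, adjusted p = 0.154). Male *Tap2* gave 26.9, 24.1 and 26.4 in controls, 34, 31.7, 31.8 and 40.8 at 1 week and 32.6, 25.4 and 27.3 at 6 weeks, with no difference that passed (0.41 ± 0.18, 0.30 ± 0.18 and 0.13 ± 0.19, adjusted p = 0.0887, 0.264 and 0.657).

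**Figure D2:**
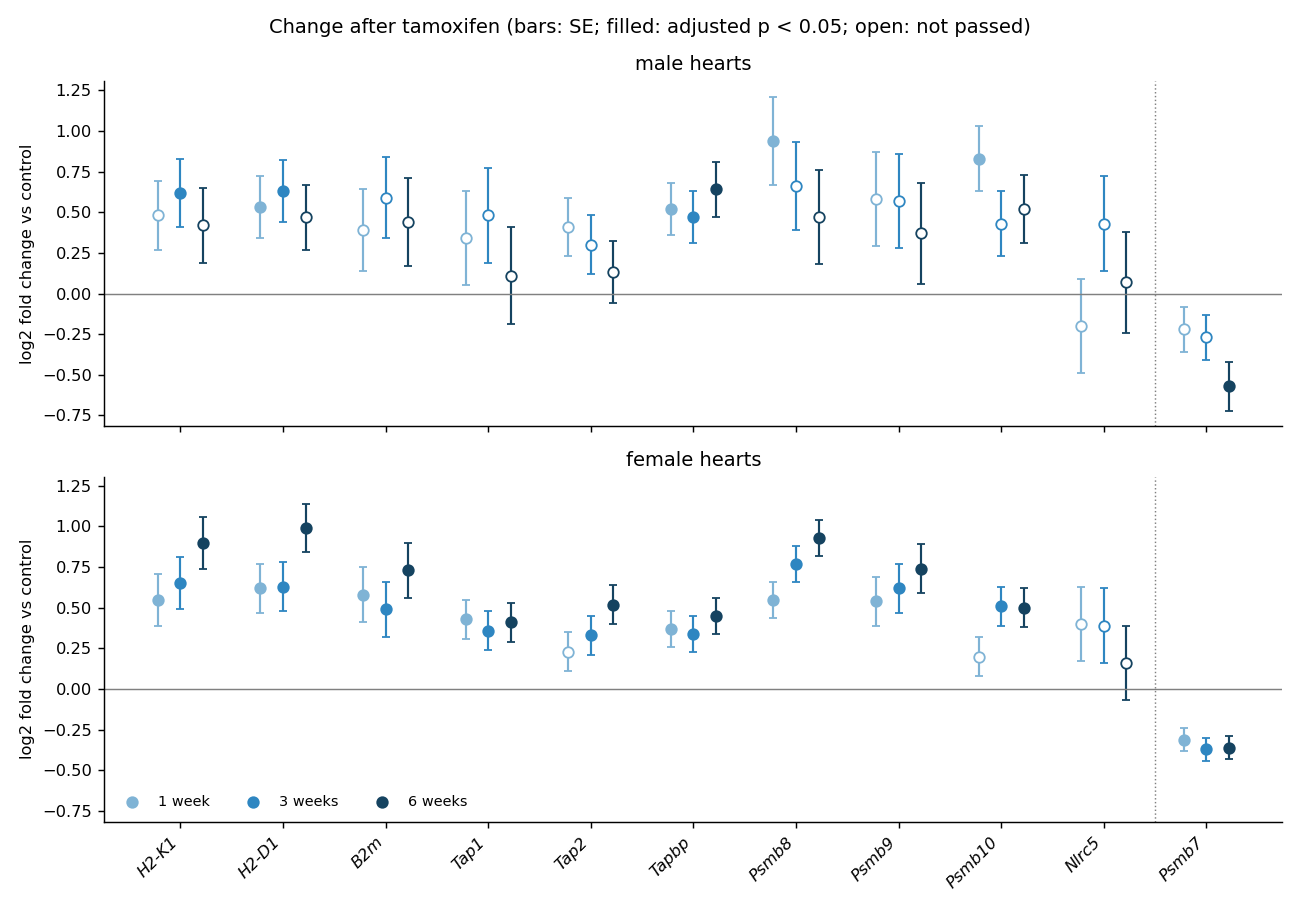
Log2 difference from the control (vertical axis, with standard errors) of the 10 genes and of *Psmb7*, at 1, 3 and 6 weeks in male and female hearts, filled where the adjusted p was under 0.05. All 10 female values at 6 weeks are above 0, from 0.16 for *Nlrc5* to 0.99 for *H2-D1*, while the *Psmb7* values are below 0 on this scaling.

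All 3 inducible proteasome subunits rose in females at 3 and 6 weeks. *Psmb8*, the chymotrypsin-like subunit of the immunoproteasome, measured 9.9, 10.4, 10.6 and 12.4 CPM in female controls, 15.9, 17.3, 14.3 and 16.5 at 1 week, 18.7, 17.4, 21.4 and 17.7 at 3 weeks and 18.9, 21.5, 19.5 and 24.5 at 6 weeks. No induced library overlapped with the controls, and the log2 differences were 0.55 ± 0.11 (adjusted p = 0.000787), 0.77 ± 0.11 (1.54e-05) and 0.93 ± 0.11 (1.02e-06). In males it measured 12.2, 9.51 and 11.4 in controls, 21.5, 20.7, 19.3 and 25 at 1 week, 37.3, 15.3, 11.8 and 14.3 at 3 weeks and 18.3, 16.2 and 12.3 at 6 weeks. The male 1-week libraries were all above the controls and that difference passed (0.94 ± 0.27, adjusted p = 0.0123), while those at 3 weeks (0.66 ± 0.27, 0.0942) and 6 weeks (0.47 ± 0.29, 0.251) did not. *Gm20496* lies opposite *Psmb8* and *Tap2* on the annotation.

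*Psmb9*, which takes the place of the caspase-like subunit, had the lowest level per kilobase of the 3 in the controls of both sexes. It measured 6.50, 5.52, 5.90 and 5.93 CPM in female controls and 9, 12.5, 8.64 and 11.6 at 6 weeks, with 7.49 to 10.7 at 1 week and 7.83 to 11.4 at 3 weeks. All induced females lay above all controls, by 0.54 ± 0.15 (adjusted p = 0.0111), 0.62 ± 0.15 (0.00365) and 0.74 ± 0.15 (0.000599). Male controls held 7.31, 4.81 and 7.65 and 6-week males 9.66, 8.05 and 7.93, and no male difference passed (0.58 ± 0.29, 0.57 ± 0.29 and 0.37 ± 0.31, adjusted p = 0.129, 0.176 and 0.399). *Psmb10*, the trypsin-like inducible subunit, measured 30.4, 32.7, 21.2 and 30.7 CPM in female controls, 37.8, 43.2, 45 and 36.9 at 3 weeks and 38.8, 45.8, 33.3 and 44.7 at 6 weeks. It rose at 3 weeks (0.51 ± 0.12, adjusted p = 0.0034) and 6 weeks (0.50 ± 0.12, 0.00287), not at 1 week (0.20 ± 0.12, 0.234). In males it was 26.3, 23.9 and 22.7 in controls and 37.9, 42.9, 39.2 and 56.1 at 1 week, when it rose without overlap (0.83 ± 0.20, adjusted p = 0.00289), and 39.6, 30.1 and 35.6 at 6 weeks, when it did not pass (0.52 ± 0.21, 0.0743).

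No constitutive subunit rose on the deposited scaling, although with each library scaled to its total reads *Psmb5* and *Psmb6* were higher in females at 6 weeks (0.31 and 0.29, adjusted p = 0.0325 and 0.0258) and in males at 1 week (0.74 and 0.64, 0.0074 and 0.00214). *Psmb5* averaged 67.4 CPM in female controls and 63.7 at 6 weeks and *Psmb6* 83.5 and 77.2, with 54.7 and 52.1, and 68.6 and 67.5, in males. On the deposited scaling neither passed at any time. *Psmb7* was lower on the deposited scaling in females (-0.31, -0.37 and -0.36, each ± 0.07; adjusted p = 0.0027, 0.000476 and 0.000443) and in males at 6 weeks (-0.57 ± 0.15, 0.00806), but with each library scaled to its total reads the female values were 0.04, -0.02 and 0.03, so its direction depends on the scaling.

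The ratio of each inducible subunit to the constitutive one it replaces was taken within a library, with 0.5 added to each CPM value. Scaling enters it only through that 0.5. *Psmb8* over *Psmb5* measured 0.153, 0.162, 0.188 and 0.165 in female controls and 0.299, 0.336, 0.379 and 0.339 at 6 weeks. It was 1.69, 1.90 and 2.02 times the control at 1, 3 and 6 weeks. *Psmb9* over *Psmb6* was 0.0774 ± 0.00644 (SD, n = 4) in female controls and 0.14 ± 0.0168 at 6 weeks, with folds of 1.72, 1.69 and 1.81, and *Psmb10* over *Psmb7* was 0.386 ± 0.0792 and 0.696 ± 0.0983, with folds of 1.43, 1.84 and 1.82. None of the 9 female contrasts overlapped with the control, and each gave p = 0.0286 in an exact two-sided permutation test, the smallest that 4 against 4 allows. After Benjamini-Hochberg adjustment over 24 ratio tests the value was 0.0762, so none passed the correction. In males *Psmb10* over *Psmb7* was 0.381, 0.362 and 0.381 in controls, 0.587 to 1.17 at 1 week, 0.437 to 0.935 at 3 weeks and 0.823, 0.546 and 1.10 at 6 weeks. Those groups did not overlap with the control, at folds of 2.08, 1.63 and 2.12, with exact permutation p = 0.0571, 0.0571 and 0.1, again the smallest possible. Uninduced males were also above the control in this ratio, 0.440 to 0.613 and 1.33-fold (exact permutation p = 0.0571). Their *Psmb8* over *Psmb5* and *Psmb9* over *Psmb6* were 0.849 and 0.879 times the control and overlapped with it. These 2 ratios in males also overlapped with the control at 1 and 3 weeks. Uninduced females were on average above the control in all 3 ratios, by 1.26, 1.22 and 1.35-fold in the order given above. Each ratio overlapped with the control (exact permutation p = 0.0571, 0.114 and 0.0571).

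**Figure D3:**
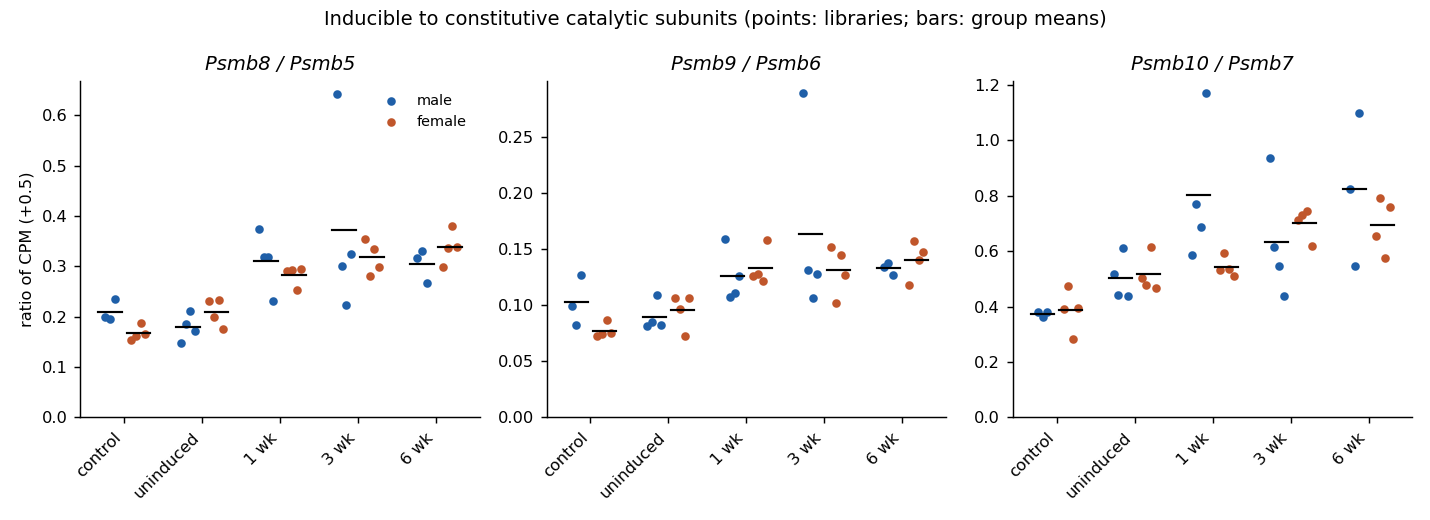
Ratio of each inducible proteasome subunit to its constitutive counterpart (*Psmb8* to *Psmb5*, *Psmb9* to *Psmb6*, *Psmb10* to *Psmb7*), on the vertical axis without unit. Each subunit entered as CPM + 0.5, with 1 point per library and a bar at the group mean. In females every induced library is above every control, with *Psmb8* to *Psmb5* at 0.153 to 0.188 in controls and 0.299 to 0.379 at 6 weeks.

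*Nlrc5*, which acts at class I promoters together with the RFX and NF-Y proteins, passed against the control at no time in either sex on the deposited scaling. In females it measured 6.11, 6.15, 7.25 and 5.32 CPM in controls, 11.3, 5.32, 8.24 and 9.58 at 1 week, 9.60, 5.70, 8.06 and 10.3 at 3 weeks and 9.36, 5.33, 9.24 and 5.09 at 6 weeks. The groups overlapped throughout, at differences of 0.40 ± 0.23, 0.39 ± 0.23 and 0.16 ± 0.23 (adjusted p = 0.206, 0.219 and 0.592). At 1 and 3 weeks these were similar in size to the female differences of *Tapbp*, which passed, but with a wider standard error. With each library scaled to its total reads *Nlrc5* rose in females at 1 week (0.73, adjusted p = 0.0153) and 3 weeks (0.71, 0.0163), but not at 6 weeks (0.53, 0.0566). In males the controls held 11, 9.32 and 11.1, the uninduced mice 5.46, 4.95, 6.14 and 6.54, and the induced mice 7.68 to 12.9 at 1 week, 9.35 to 31.3 at 3 weeks and 8.43 to 13.7 at 6 weeks. Uninduced males were all below the controls, at -0.81 ± 0.29, without passing (adjusted p = 0.292). Against the uninduced mice *Nlrc5* rose in males at 3 weeks (1.24 ± 0.27, adjusted p = 0.00289) and 6 weeks (0.88 ± 0.29, 0.0352), whereas against the controls it did not (0.43 ± 0.29 and 0.07 ± 0.31, adjusted p = 0.327 and 0.885). At 1 week in males *Nlrc5* was the only member below its control on the deposited scaling (-0.2 on the log2 scale). Its mean was 9.19 CPM against 10.5.

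In CPM per kilobase of annotated exons, with overlapping exons merged, the order of levels was the same at the top in both sexes. Female controls held 87.7 ± 14.2 for *B2m*, 59.9 ± 4.87 for *H2-D1* and 42.3 ± 5.10 for *H2-K1* (SD, n = 4), then 16.6 ± 2.97 for *Psmb10*, 14.5 ± 0.718 for *Tapbp*, 4.77 ± 0.521 for *Tap2*, 3.16 ± 0.316 for *Psmb8*, 2.32 ± 0.213 for *Tap1*, 1.57 ± 0.107 for *Psmb9* and 0.731 ± 0.0936 for *Nlrc5*. *Psmb10* and *Tapbp* were neighbours within their spread, as they were in male controls (14 ± 1.05 and 13.2 ± 1.14), where *B2m* (81.5 ± 19) and *H2-D1* (69.4 ± 12.1) also lay within theirs. The displayed molecule was thus represented by far more transcript per kilobase than the transporter or the inducible subunits. The constitutive *Psmb5* and *Psmb6* stood at 37.6 ± 4.41 and 38.1 ± 4.33 in female controls, above each inducible subunit. The remaining constitutive subunit, *Psmb7*, went the other way. It stood at 12.5 ± 0.703 in female controls and 10.9 ± 0.804 in male controls, below *Psmb10*, which replaces it.

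Against the uninduced mice, fewer female genes passed. The counts were 0 at 1 week (2 at an unadjusted p under 0.05, and 1, *Tap1*, by DESeq2), 1 at 3 weeks (*Psmb8*) and 6 at 6 weeks (*H2-K1*, *H2-D1*, *Tap1*, *Tapbp*, *Psmb8* and *Psmb9*), with 8.32%, 10.6% and 13.7% of all genes called higher. Without uninduced replicate 4, whose *B2m* of 343 CPM was well above the 179 to 212 of the others, the count at 1 week was 5 and at 3 weeks 3. At 1 week it was 1 without uninduced replicate 1 or 1-week replicate 1, at 3 weeks 0 without uninduced replicate 2 or 3-week replicate 3 and 2 without 3-week replicate 2, and at 6 weeks 3 without uninduced replicate 2. Males gave 3 at 1 week (*H2-K1*, *H2-D1* and *Psmb8*), 5 at 3 weeks (*H2-K1*, *H2-D1*, *B2m*, *Tap1* and *Nlrc5*) and 3 at 6 weeks (*H2-D1*, *Tapbp* and *Nlrc5*), with 12.1%, 10.6% and 13.0% of all genes. In males the count at 1 week fell to 1 (*Psmb8*) without uninduced replicate 2 or 4 or 1-week replicate 1. At 3 weeks it fell to 3 without uninduced replicate 1, 2 or 4, and at 6 weeks to 0 or 1 without any 1 of the 7 libraries.

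Uninduced against control hearts gave no member that passed in either sex, while 0.561% of all male genes and 2.41% of all female genes were called higher and 101 of 16931 and 487 of 16956 were called in either direction. At an unadjusted p under 0.05 there was 1 male and 3 female genes among the 10, against 10.6% and 15.4% of all genes, and by DESeq2 1 female gene (*Psmb8*). *Psmb8* also passed, as the only member, when female uninduced replicate 2 was left out. Leukocyte markers were already higher in uninduced females (6 of 6, and 8 of 9 for macrophages), with 0 of 6 and 0 of 9 in males, and their part in the values was not tested. Female uninduced *Psmb8* measured 14, 11.5, 15.0 and 15.5 CPM against 9.9 to 12.4 in the controls, which overlapped, at 0.36 ± 0.11 (adjusted p = 0.0934).

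Between the induced times no member passed in either sex. At an unadjusted p under 0.05, 2 male and 1 female members differed between 3 weeks and 1 week (2710 of 16931 and 1699 of 16956 genes over all), 0 and 5 between 6 weeks and 1 week (2615 and 2137), and 0 and 1 between 6 and 3 weeks (1072 and 2572). DESeq2 called 1 of these, *Psmb8* between 6 weeks and 1 week in females, where limma gave 0.39 ± 0.11 (adjusted p = 0.107) and the libraries did not overlap. Few genes of any kind were called between times. Called higher were 0.0118%, 0.13% and 0.0% in males and 0.165%, 0.891% and 0.0% in females, in the same order of comparisons, and called in either direction were 3, 28 and 0 male and 37, 175 and 0 female genes.

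A male library at 3 weeks, replicate 1, stood apart. It was the highest of its group for 10 of the 10 members. For *Tap1* it held 52.8 CPM against 14.4 to 17.7 in the other 3 libraries, for *Psmb9* 22.3 against 6.54 to 8.73 and for *Nlrc5* 31.3 against 9.35 to 13.5. It was also the highest for 13 of 13 interferon gamma induced genes, at 1.43 to 9.29 times the next library (median 3.77). *Igtp*, an interferon gamma induced GTPase, measured 198 CPM against 15.5 to 21.3, and *Cxcl9*, a T cell chemokine, 18.4 against 0.7 to 3.0. For 12 of 12 interferon alpha/beta induced genes it was highest too, by 1.04 to 2.09 times (median 1.48). Its T cell markers summed to 8.99 CPM against 5.93 to 7.79 and its macrophage markers to 1160 against 861 to 1110. The part that these levels have in the male 3-week values was not tested beyond leaving the library out, after which *H2-D1* alone still passed.

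**Figure D4:**
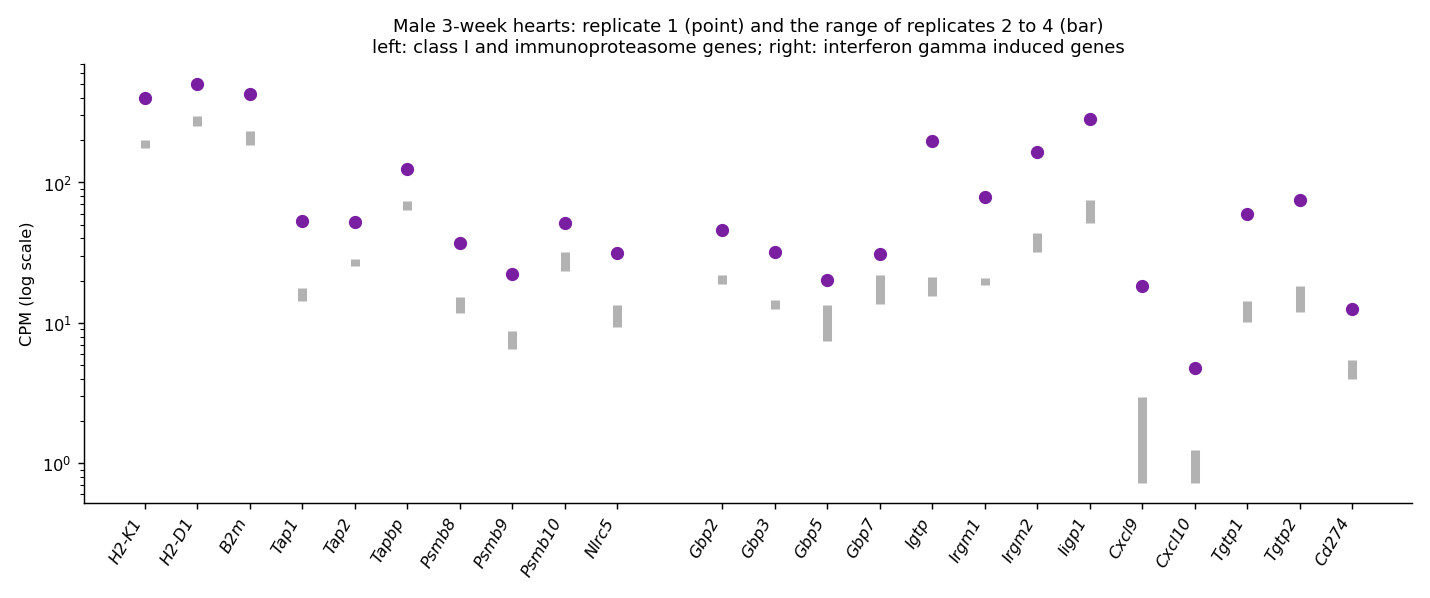
CPM on a log axis in the 4 male libraries at 3 weeks, for the 10 genes and the interferon gamma induced list, with replicate 1 as a point and the range of replicates 2 to 4 as a bar. Replicate 1 lies above the bar for all 10 members and all 13 listed genes, most widely for *Igtp* at 198 CPM against 15.5 to 21.3.

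Other genes of the pathway were counted in lists. Of 12 tested non-classical and other class I heavy chain genes, 6 rose and 1 fell at 6 weeks in females and 2 rose and 1 fell in males, and with total reads 8 and 1 in females and 5 and 0 in males. *H2-T23*, which presents leader peptides of other class I chains to NK cell receptors, rose from 24.3 ± 3.01 to 49.7 ± 10.2 CPM in females (1.00 ± 0.15 on the log2 scale, adjusted p = 1.82e-05), and *H2-M3*, which presents formylated peptides, from 3.19 ± 0.715 to 7.77 ± 0.446 (1.18 ± 0.13, 3.84e-07). *H2-M3* also rose in males (0.74 ± 0.19, adjusted p = 0.00691). *H2-T24* fell in females (-0.82 ± 0.13, adjusted p = 3.4e-05) and in males (-0.87 ± 0.21, 0.00523), and with each library scaled to its total reads it stayed lower in females (-0.45, 0.00545) but did not pass in males (-0.68, 0.0516). *H2-Q4*, *H2-Q6* and *H2-Q7* did not pass in either sex.

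Among peptide loading and trimming genes, 3 of 5 rose at 6 weeks in females: *Calr* and *Pdia3*, chaperones of the loading complex, and *Tapbpl*, an editor of bound peptides, at 0.72 ± 0.14, 0.92 ± 0.14 and 0.48 ± 0.13 (adjusted p = 0.000268, 2.52e-05 and 0.00613). In males only *Calr* did (0.48 ± 0.13, 0.00873). *Erap1*, which trims peptides in the endoplasmic reticulum, did not pass in females on the deposited scaling (0.11 ± 0.12, adjusted p = 0.488). With total reads 5 of 5 genes of this list rose in females, *Erap1* included, and 1 of 5 in males. Of 9 proteasome activator and assembly genes, 2 rose and 2 fell at 6 weeks in females and 0 rose and 1 fell in males, and with total reads 6 and 0 in females and 1 and 1 in males. *Psme1* and *Psme2*, the subunits of the interferon-inducible PA28 cap, rose in females by 0.36 ± 0.12 and 0.29 ± 0.10 (adjusted p = 0.0211 and 0.0285). Neither passed in males (0.18 ± 0.15 and 0.21 ± 0.17). *Psme4*, which encodes the activator PA200, fell in males (-0.75 ± 0.15, adjusted p = 0.000684), also with total reads (-0.56, 0.0225), and in females (-0.53 ± 0.11, 0.000735) but not with total reads (-0.13, 0.284). The other gene that fell in females was the assembly chaperone *Psmg2* (-0.33 ± 0.10, adjusted p = 0.0123), and with total reads it did not. Of 11 other core subunits and 18 subunits of the regulatory particle, none rose and 1 and 0 fell in females at 6 weeks, and 0 and 2 fell in males. These falls depend on the scaling, since with total reads 7 of 11 and 15 of 18 were higher in females and none lower in either sex.

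**Figure D5:**
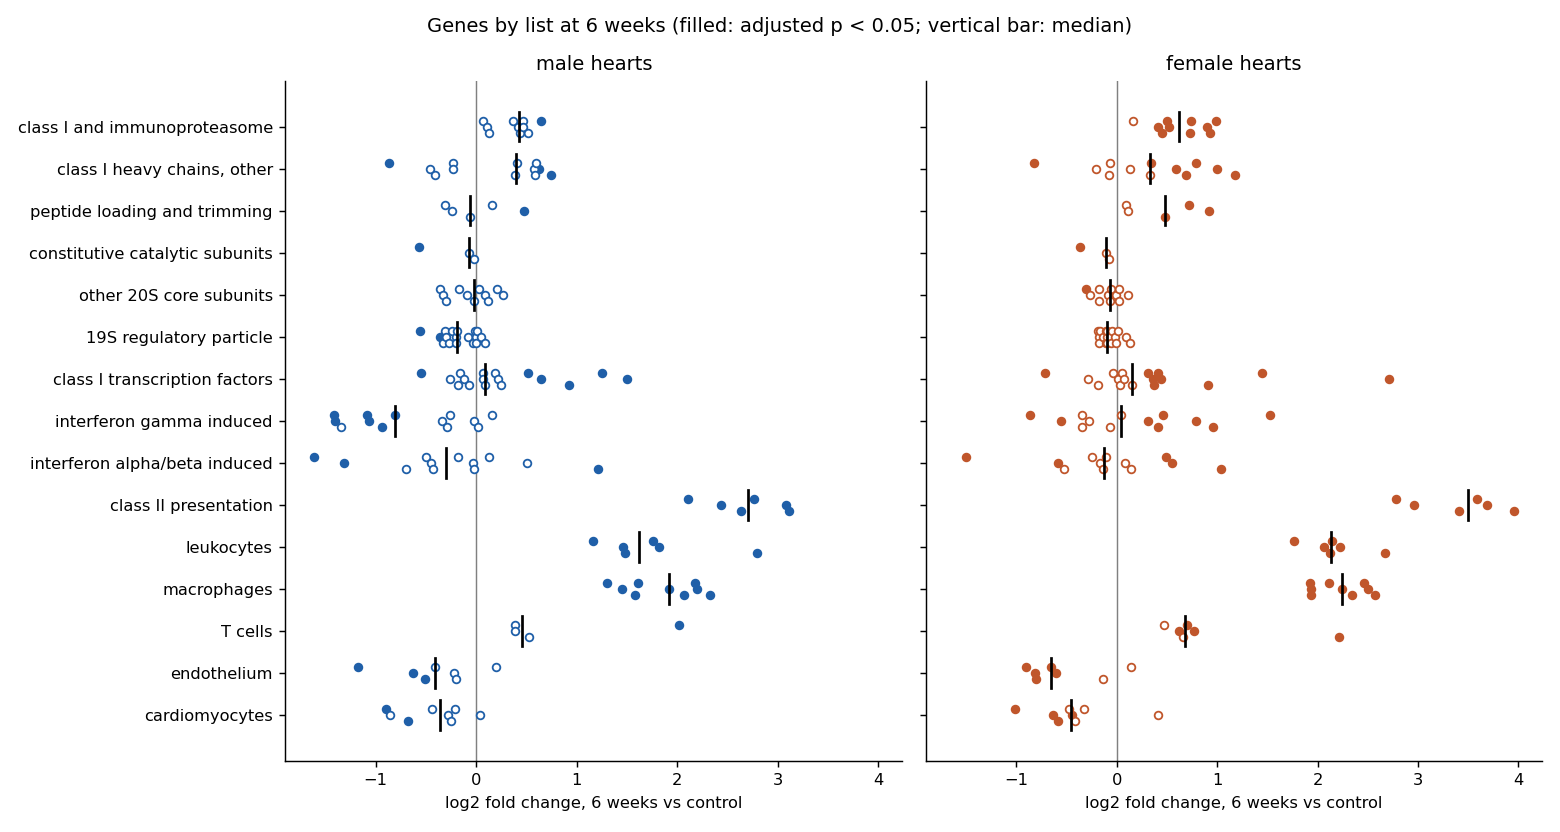
Log2 difference at 6 weeks against control (horizontal axis) of the 10 genes and of every tested gene of the pathway and cell type lists shown, 1 row per list and 1 panel per sex, filled where the adjusted p was under 0.05, with a vertical bar at the list median. The class II genes lie highest, at medians of 2.7 in males and 3.5 in females, and the male interferon gamma induced genes lowest, at a median of -0.81.

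Of 17 transcription factors of class I genes, 8 rose and 1 fell in females at 6 weeks and 5 rose and 1 fell in males, and with total reads 14 and 1 in females and 5 and 0 in males. *Irf1*, an interferon-inducible activator of class I genes, did not pass in females (0.15 ± 0.17, adjusted p = 0.514) unless scaled to total reads (0.54, 0.0162). *Stat3*, which acts downstream of interleukin 6 family cytokines, rose in both sexes (0.91 ± 0.14 in females, 2.77e-05; 0.92 ± 0.16 in males, 0.000202). *Ciita*, the class II activator related to *Nlrc5*, rose in females from 1.06 ± 0.125 to 9.76 ± 1.78 CPM (2.71 ± 0.20, adjusted p = 1.7e-09). Reads for *Ifng* and *Ifnb1* were not among the rows used.

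Interferon induced genes were counted in 2 lists. Of 13 interferon gamma induced genes, 5, 4 and 6 rose and 1, 2 and 2 fell at 1, 3 and 6 weeks in females (medians 0.03, 0.2 and 0.04), and 0 rose and 2, 0 and 6 fell in males (medians -0.42, -0.17 and -0.81). With total reads 6, 7 and 6 rose in females (medians 0.35, 0.54 and 0.41) and 1, 3 and 0 in males (-0.07, 0.09 and -0.62). The females' risers included *Iigp1* and *Irgm2*, interferon-inducible GTPases (0.96 ± 0.20 and 0.79 ± 0.12, adjusted p = 0.00084 and 3.46e-05), and the males' fallers *Gbp7* and *Tgtp1*, GTPases of related families (-1.07 ± 0.24 and -1.42 ± 0.46, adjusted p = 0.00232 and 0.0286). At 6 weeks 2 fell with total reads in males and none in females, and *Gbp7* still fell in males (-0.88, adjusted p = 0.00993) while *Tgtp1* did not pass (-1.23, 0.0529). Of 12 interferon alpha/beta induced genes, 6, 2 and 3 rose and 1, 3 and 2 fell at the 3 times in females (medians 0.35, -0.04 and -0.12), and 3, 2 and 1 rose and 1, 1 and 2 fell in males (0.43, 0.12 and -0.3). With total reads 8, 6 and 5 rose in females (0.68, 0.27 and 0.26) and 8, 2 and 1 in males (0.78, 0.36 and -0.13). At 6 weeks *Rsad2* was lower in both sexes (-1.50 ± 0.14 and -1.62 ± 0.29), and also with total reads (-1.11 and -1.43).

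Class II presentation genes rose in all 6 of 6 cases at each time in both sexes, with medians of 1.66, 2.95 and 3.5 in females and 1.21, 2.18 and 2.7 in males. *Cd74*, the class II chaperone, went from 81.3 ± 3.08 to 872 ± 75.0 CPM in females at 6 weeks. Genes of the CD8 T and NK list, which includes the general T cell genes *Cd3e* and *Cd3g*, were low. Of 7 tested in females 4 rose at 6 weeks (*Cd3e*, *Cd3g*, *Klrk1* and *Klrd1*), all under 1 CPM, and *Cd8a* did not pass (0.66 ± 0.27, adjusted p = 0.0574). With total reads 6 of 7 rose in females and 1 of 5 in males.

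Markers of other cells moved over the same groups. Macrophage markers, 9 of 9 higher in both sexes at 6 weeks, summed to 220 to 284 CPM in female controls and 1190 to 1350 at 6 weeks, and to 238 to 380 and 968 to 1380 in males. Pan-leukocyte markers, 6 of 6 higher in both, summed to 58.4 to 80.0 and 244 to 346 in females and 58.5 to 104 and 195 to 283 in males. T cell markers were low, with 4 of 6 higher in females at sums of 1.74 to 3.45 and 8.69 to 16.1, and 1 of 4 in males. With total reads 6 of 6 were higher in females and 1 of 4 in males. Endothelial markers, which mark another class I rich cell, were lower on the deposited scaling for 5 of 7 genes in females, with sums of 882 to 1000 and 566 to 770, and for 3 of 7 in males. With total reads 2 of 7 were lower and 1 higher in females. Fibroblast markers were higher for 4 of 6 genes in both sexes, with sums of 1720 to 1990 and 3090 to 5550 in females and 1300 to 1520 and 2700 to 3070 in males. They did not all move up: with total reads 5 were higher and 1 lower in females, and 4 and 1 in males. Mesothelial markers were higher for 3 of 4 genes in females, at 5.66 to 10.7 and 14.1 to 75.8. Erythroid markers were higher for 5 of 5 genes in females at 1 week alone, at 1400 to 2320 in controls and 3130 to 8350. Heart muscle markers were lower for 2 of 8 genes in males and 4 of 8 in females at 6 weeks, and for 2 and 1 with total reads. Atrial muscle markers, of which 2 were tested in males and 3 in females, summed to 16 to 61.6 in male controls and 222 to 871 at 1 week, and to 37.4 to 76.6 in female controls, 86.3 to 321 at 1 week and 62.9 to 1550 at 6 weeks, with 1 gene, *Nppa*, that rose at 1 and 3 weeks in males and at 1 and 6 weeks in females. Pericyte and smooth muscle markers were lower for 2 of 5 genes in both sexes at 6 weeks (1 with total reads), with sums of 748 to 921 and 523 to 659 in females and 764 to 934 and 424 to 485 in males. The part of these cell types in the class I values was not tested.

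The genes whose pattern lay closest to each member were found over 8 log2 differences (1, 3 and 6 weeks and uninduced against control in each sex) among 16627 genes, as the root mean square difference. *H2-K1* and *H2-D1* were each other's nearest, at 0.065. *Psmb8* lay closest to *H2-T23* (0.091), *B2m* to *Ripk1* (0.07) and *Tapbp* to *Ddost* (0.058) and *Rpn2* (0.06), 2 subunits of the oligosaccharyltransferase of the endoplasmic reticulum. *Nlrc5* had no gene closer than 0.192 (*Gm5160*), the widest gap of the 10.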

How the data were processed

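Poly(A) RNA of mouse hearts was sequenced, and the deposited values are a signal per gene, CPM computed on effective library sizes, in 1 table per sex. Per the study's methods and the labels, the authors aligned reads to GRCm39 with STAR and counted them with featureCounts. The strand setting, multi-mapping reads and any filter on low counts are not given in the sources used here. In the deposited signal 100% of values lay within 0.001 of whole reads, so reads were recovered for count-based alternatives.

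Groups came from the labels. 2 of 40 libraries with contradicting labels were left out. Genes with at least 0.5 CPM in at least 3 libraries (16931 male, 16956 female) were fitted per sex, all groups together, by limma-trend (limma 3.58.1, R 4.3.3) to log2(CPM + 0.5), and p-values were adjusted by Benjamini-Hochberg over all genes; an adjusted p under 0.05 was a call. A difference on this scale understates the change of low genes. Ratios were compared by exact two-sided permutation tests (scipy 1.17.1, Python 3.11.15), adjusted over 24. Because the unit is not counts, edgeR (4.0.16) and DESeq2 (1.42.0) on the recovered reads served as alternatives, with other pseudocounts, filters, scalings, a fit on only the 2 groups, a replicate block and leaving out each library. Scaling to total reads and the alternatives for *Psmb7* were added after the data had been seen. The members and lists were chosen with earlier results of these data known. The text names the 10 genes, genes of the lists and the 3 nearest patterns. Each animal gave 1 library. Fits were tested on simulated data.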

Additional observations from a re-analysis of the deposited data

Results flagged for a closer look

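Groups of 4 libraries were searched for a highest or lowest library far from the other 3, which chance alone gives in about 1 in 20. The genes and ratios share their libraries, so the flags are not independent and their number cannot be set against that rate. Among 104 such groups (10 genes and 3 ratios), 13 were flagged. In males at 3 weeks these were *H2-K1* at 402 CPM (others 176 to 201), *Tap1* at 52.8 (14.4 to 17.7), *Tap2* at 52.3 (25.4 to 28.5), *Psmb8* at 37.3 (11.8 to 15.3), *Psmb9* at 22.3 (6.54 to 8.73) and the *Psmb9* to *Psmb6* ratio at 0.289 (0.106 to 0.131), all in replicate 1. In males at 1 week they were *H2-K1* at 267 (189 to 195), *Tap1* at 23.7 (18.2 to 19.1) and *Nlrc5* at 12.9 (7.68 to 8.35). In uninduced males they were *Tap1* at 14.1 (10.5 to 11) and the *Psmb9* to *Psmb6* ratio at 0.109 (0.0815 to 0.0852). In females they were the *Psmb8* to *Psmb5* ratio at 1 week, low at 0.253 (0.291 to 0.294), and *Tapbp* at 3 weeks at 95.4 (73.9 to 77.5).

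Some differences between times ran in opposite directions in the sexes, and this difference was not tested. From 1 to 6 weeks the log2 difference was -0.06 in males and 0.35 in females for *H2-K1*, -0.06 and 0.37 for *H2-D1*, -0.28 and 0.29 for *Tap2*, -0.47 and 0.39 for *Psmb8* and -0.31 and 0.30 for *Psmb10*. From 3 to 6 weeks it was -0.20 and 0.25 for *H2-K1*, -0.16 and 0.36 for *H2-D1* and -0.19 and 0.16 for *Psmb8*.

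The 2 male libraries in no group gave values outside the range of the male controls for some members. The one titled as 6 weeks and described as control held 28.2 CPM of *Psmb10* (controls up to 26.3), but 129 of *B2m* (controls from 131), 10.7 of *Tap1* (14) and 6.01 of *Nlrc5* (9.32). The one titled as control and described as 6 weeks held 260 of *B2m* (211), 78.4 of *Tapbp* (63.9) and 13.2 of *Nlrc5* (11.1), but 19.4 of *Tap2* (from 24.1) and 21.8 of *Psmb10* (22.7).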

How the results depend on the processing

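Of 1144 recomputed values of the members and *Psmb7*, 1072 kept direction and side of the threshold, 42 lost a call, 23 gained one and 7 turned direction. Scaling to total reads, added after the data were seen, gave 8, 6 and 3 members called in males and 10, 10 and 9 in females at 1, 3 and 6 weeks against control. Of all genes it called 37.9%, 22.9% and 21.3% higher in males and 41.3%, 41.9% and 49.3% in females. It gave 9 in males at 1 week and 2 at 6 weeks against uninduced, 6, 7 and 9 in females at the 3 times, and 1 in uninduced females against control. In the same order it called 19.1% and 12.5%, then 16.2%, 19.1% and 28.6%, and then 4.27% of all genes higher. It also turned *Nlrc5* in males at 1 week to 0.14 and *Psmb7* to 0.13 in males at 1 week and 0.04 and 0.03 in females at 1 and 6 weeks. Over all genes it called 8356 higher and 1045 lower in females at 6 weeks, against 3678 and 3567 on the deposited scaling, and 3606 and 595 in males, against 2742 and 1838. A fit on only the 2 groups gave 7, 0 and 2 in males against control and 1 for uninduced (*Nlrc5*, lower), with 9 at 1 week and 6 at 6 weeks against uninduced males and 3 at 6 weeks against uninduced females. Of 16931 male genes that fit called 3091, 2431 and 1906 higher at the 3 times against control. For uninduced males against control it called 113 higher and 37 lower. Against uninduced it called 2328 and 1763 higher in males at 1 and 6 weeks, and 1566 of 16956 in females at 6 weeks. DESeq2 gave 1 member in females for uninduced against control, for 1 week against uninduced and for 6 weeks against 1 week. Over all genes it called 673, 1480 and 247 higher in these comparisons. The cause of these moves was not tested.

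Leaving out 1 library at a time gave 1 to 4, 0 to 4 and 0 to 1 members in males at 1, 3 and 6 weeks against control, and 6 to 7, 5 to 9 and 9 in females. Against uninduced it gave 1 to 4, 3 to 6 and 0 to 1 in males and 0 to 5, 0 to 3 and 3 to 7 in females, with 0 to 1 for uninduced against control in females. *Tap1* in males at 6 weeks ranged from -0.01 to 0.21 and *Nlrc5* from -0.08 to 0.26, with *Nlrc5* at 0.0 without control replicate 3. The female log2 ratio differences at 1, 3 and 6 weeks ranged from 0.72 to 0.82, 0.87 to 0.98 and 0.96 to 1.08 for *Psmb8* to *Psmb5*, 0.70 to 0.84, 0.68 to 0.87 and 0.80 to 0.94 for *Psmb9* to *Psmb6* and 0.37 to 0.62, 0.74 to 0.99 and 0.72 to 0.97 for *Psmb10* to *Psmb7*, each at p = 0.0571 in the exact permutation test, the smallest that 4 against 3 allows. These are smaller designs, so the p says nothing of stability.

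Replicate numbers did not pair the samples on average. The group mean of each gene was first taken off. Same-numbered libraries of different groups then correlated at a mean of 0.013 in males (-0.134 to 0.256 over 33 pairs) and 0.025 in females (-0.342 to 0.563 over 40). Libraries with different numbers gave means of -0.004 in males and -0.009 in females. Whether single pairs shared a litter or batch was not tested. With the replicate block the count was 1 in males at 6 weeks and 1 in females at 1 week, both against uninduced, and no other count of members moved by over 1.5 times.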

Other observations

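The 2 male libraries that entered no group also differed in the transgene. The library titled as 6 weeks and described as control held 0.597 CPM of *Il11*, 127 of *H2-K1*, 180 of *H2-D1* and 58.4 of *Tapbp*. The library titled as control and described as 6 weeks held 511 CPM of *Il11*, 140 of *H2-K1* and 209 of *H2-D1*. These are values of single libraries and were compared with no group by a test.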
